A study of Mus musculus with 8 samples.

Results

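Complement is a set of plasma and cell-surface proteins that marks particles and cells for removal and attracts leukocytes. The classical pathway starts with the C1 complex of C1q and the proteases C1r and C1s. Of these, C1s cleaves C4 and C2, while the alternative pathway amplifies C3 cleavage through factor B. C1 inhibitor, CD55 and CD59 restrain the cascade at successive steps, and C5a acts through its receptor C5aR1. Most plasma complement is made in the liver, and many other cells, chondrocytes among them, can make single components.

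The 9 complement genes described here were taken by name from the 54658 gene symbols of the count table, with earlier results of these data known. They are the components *C3*, *C4b*, *Cfb*, *C1ra* and *C1s1*, the regulators *Serping1*, *Cd55* and *Cd59a*, and the receptor *C5ar1*. RNA-Seq covered primary articular chondrocytes, the cells of joint cartilage, taken from the femoral heads of wild-type mice 3 weeks of age. In 4 samples the cells received IL-1β at 1 ng/mL, and in 4 samples they received vehicle, each for 24 h. The question was how the cytokine changed gene expression in these cells. Nothing in the labels says whether the replicates came from separate mice or cultures, so p-values measure the spread between these samples, which may be technical. The model is a culture of isolated cells without the joint's other tissues.

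Total counts per sample were 10992355 to 17456063, and a floor of 3 counts corresponds to 0.173 to 0.270 CPM, the counts scaled to a common library size with edgeR's TMM factors. The 8 chondrocyte markers, *Col2a1* and *Acan* among them, were measured in every sample, and all 8 were lower with IL-1β by the criteria for a differentially expressed gene (DEG) given below. Their summed level was 3577 to 3945 CPM with IL-1β and 14239.5 to 14793 CPM with vehicle. In bulk samples, fewer cells of a type and less RNA per cell cannot be told apart. Of 10 macrophage and leukocyte markers, 2 passed the filter on low counts, with a summed level of 16.5 to 19.6 CPM against 11.7 to 13.5 CPM. *Cd68*, a lysosomal protein gene, rose by a log2 fold change of 0.67, whereas *Lyz2*, the lysozyme gene, fell by 0.60 on the log2 scale. Under the filter, *Csf1r* had 7 to 19 counts with IL-1β and 7 to 17 with vehicle, and *Mrc1* had 4 to 6 and 0 to 12. *Ptprc* had at most 6 counts in any sample, *Fcgr3* at most 4, and *Adgre1* and *Tyrobp* at most 3. *S100a8* had at most 1, and *Ly6g* had 0 in all 8. Fibroblast markers summed to 78.2 to 83.8 CPM against 76.6 to 81.8 CPM, with *Pdgfra* higher and *Col3a1* lower. The part of these marker changes in the complement values was not tested. Endothelial markers stayed under 1 CPM in sum, at 0.213 to 0.713 CPM with IL-1β and 0.347 to 0.784 CPM with vehicle.

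A gene was called a DEG when its log2 fold change exceeded 1 in size and its adjusted p-value from edgeR's quasi-likelihood test, corrected by Benjamini-Hochberg, was under 0.05. The test ran over 14404 genes, those that exceeded 1 CPM in 4 or more samples. Of the 9 complement genes, 4 were DEGs higher with IL-1β, namely *C3*, *C1s1*, *Cfb* and *C1ra*. Across all genes tested, 2.86% were DEGs higher. No complement gene was a DEG lower with IL-1β, where the share over all genes was 2.35%. *Cd55* was lower with a smaller fold, *C4b* did not pass the test, and *Serping1*, *Cd59a* and *C5ar1* lay under the filter. By the adjusted p-value alone, the same 4 genes were higher and 1 was lower, beside 20.4% and 19.8% of all genes tested. Groups did not overlap for 5 of the 6 genes tested, and for 36.8% of all genes tested. *Cfb* and *C1s1* reached the filter through their IL-1β samples, so that a difference was partly built into their testing.

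**Figure D1:**
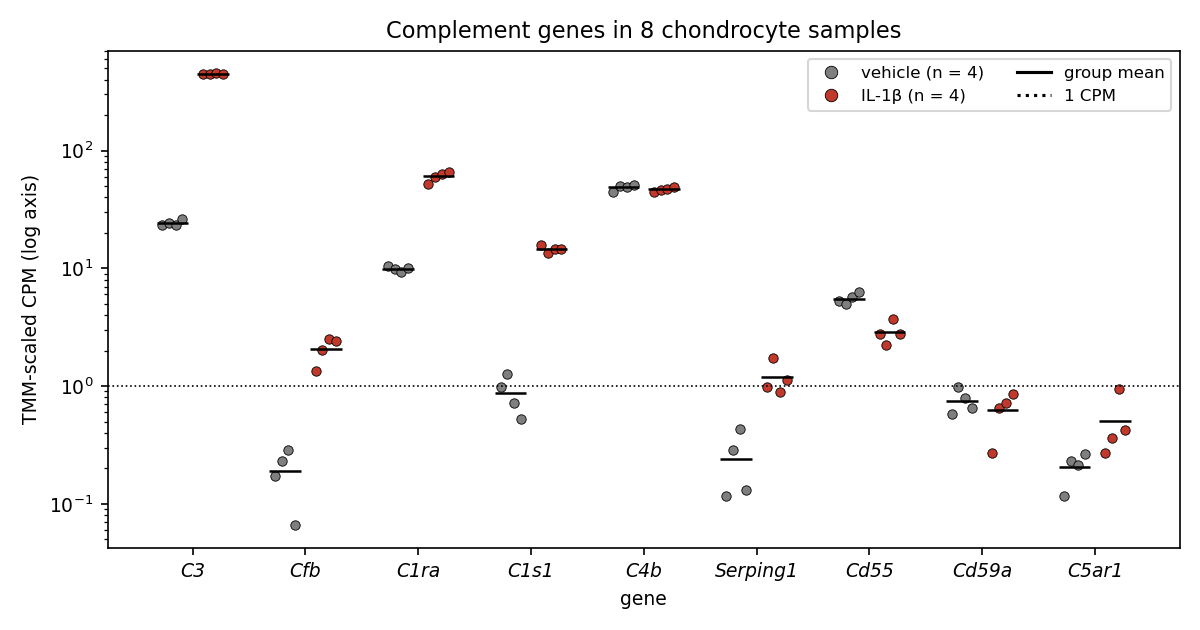
TMM-scaled CPM (log axis) of the 9 complement genes in each sample, in gray for vehicle and red for IL-1β (n = 4 each), with a line at each group mean and a dotted line at 1 CPM. *C3* lay at 444 to 454 CPM with IL-1β and 23.3 to 26.2 CPM with vehicle, while the points of *C4b* and *Cd59a* overlapped.

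The promoter sequences of *C3*, *C1ra* and *C1s1*, which rose, and of *Cd55*, which fell, are shown so that genes that moved in opposite directions can be compared. RefSeq windows of 250 bases before and 50 after the start site were given for 6 of the 9 genes. They were searched on both strands for 4 motifs. These were the NF-κB site GGGANNNNCC, the C/EBP site TTNCNNAA, the STAT site TTCNNNGAA and the interferon-stimulated response element GAAANNGAAA. Capitals mark the letters that matched, and no matches overlapped. All windows are on GRCm38.p6 and read 5′ to 3′ along the gene. The first is from the minus strand at chr17:57228087-57228386, the second from the plus strand at chr6:124512371-124512670. The third is from the minus strand at chr6:124542310-124542609, and the last from the minus strand at chr1:130462695-130462994.
C3: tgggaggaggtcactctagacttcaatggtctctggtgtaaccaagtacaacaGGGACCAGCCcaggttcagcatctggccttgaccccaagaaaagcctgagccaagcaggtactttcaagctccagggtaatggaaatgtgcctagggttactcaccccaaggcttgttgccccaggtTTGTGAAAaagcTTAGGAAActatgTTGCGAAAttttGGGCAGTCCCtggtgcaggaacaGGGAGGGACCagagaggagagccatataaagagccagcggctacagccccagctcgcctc
C1ra: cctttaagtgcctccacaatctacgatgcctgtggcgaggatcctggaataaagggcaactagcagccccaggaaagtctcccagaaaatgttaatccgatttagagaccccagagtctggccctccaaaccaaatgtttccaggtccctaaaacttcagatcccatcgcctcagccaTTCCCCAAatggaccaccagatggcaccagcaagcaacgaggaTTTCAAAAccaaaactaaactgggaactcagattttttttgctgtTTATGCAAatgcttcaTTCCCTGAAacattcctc
C1s1: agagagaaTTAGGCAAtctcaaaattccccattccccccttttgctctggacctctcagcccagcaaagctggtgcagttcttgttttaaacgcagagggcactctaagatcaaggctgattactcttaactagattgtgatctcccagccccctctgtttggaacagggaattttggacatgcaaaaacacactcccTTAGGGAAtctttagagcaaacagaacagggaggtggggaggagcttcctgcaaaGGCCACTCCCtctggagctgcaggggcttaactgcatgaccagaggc
Cd55: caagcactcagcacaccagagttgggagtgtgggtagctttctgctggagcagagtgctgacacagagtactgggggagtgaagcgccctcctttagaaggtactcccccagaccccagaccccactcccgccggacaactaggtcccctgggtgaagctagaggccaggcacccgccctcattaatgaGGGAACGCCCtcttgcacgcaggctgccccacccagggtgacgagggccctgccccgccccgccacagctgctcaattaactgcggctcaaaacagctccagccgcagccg

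The *C3* window held 3 NF-κB letter matches, starting at -197, -33 and -10 relative to the start site, and 3 C/EBP matches between -70 and -38. The *C1ra* window held 3 C/EBP matches and 1 STAT match but no NF-κB match. Its RefSeq start lies inside the gene as GENCODE gives it. The *C1s1* window shown held 2 C/EBP matches and 1 NF-κB match, the latter after the start site, from 4 to 13. A second RefSeq window of *C1s1*, at chr6:124542272-124542571, held 1 C/EBP match and the same NF-κB letters, starting at -35. *Cd55* had 1 NF-κB match, starting at -61. Of the 6 genes searched, 3 had the NF-κB letters and 4 the C/EBP letters, against 20.7% and 40.7% of 32851 promoters of the same length. The shares over promoters count single windows, whereas *C1s1* counted once, and each of its windows held both sets of letters. The STAT letters occurred in 1 of the 6 and in 8.30% of promoters, and the interferon element in 1, *Cd59a*, and in 3.44%. *Cd55*, which fell, held the NF-κB letters as well as *C3* and *C1s1*, which rose. A match describes letters in the window and not a binding site.

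*C3* encodes the central component on which all complement pathways converge, and spans chr17:57203970-57228136 on the minus strand (GRCm38). Its level was 444, 450, 454 and 451 CPM in IL-1β replicates 1 to 4. In vehicle replicates 1 to 4 it was 23.4, 24.3, 23.3 and 26.2 CPM. The groups lay far apart, and within each group the samples differed by little. *C3* rose 18.5-fold, with a log2 fold change of 4.21 (SE 0.0393, adjusted p = 1.28e-33). This was the 26th largest rise among the 14404 genes tested. Per length, as CPM per kilobase of listed gene length (RPKM), its level was 87.4 ± 0.803 (SD, n = 4) with IL-1β and 4.72 ± 0.258 (SD, n = 4) with vehicle. In the order of RPKM over the genes tested, *C3* stood at place 6912 with vehicle and at place 406 with IL-1β.

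*Cfb* encodes factor B, the protease that joins C3b in the alternative pathway convertase, and lies at chr17:34856374-34862518 on the minus strand. Its counts were 15, 28, 42 and 34 in the IL-1β samples and 3, 4, 4 and 1 in the vehicle samples. Every IL-1β sample was above every vehicle sample, though the vehicle samples held too few reads for a precise level. *Cfb* rose by a log2 fold change of 3.44 (SE 0.350, adjusted p = 2.98e-09), the 42nd largest rise. The ratio of summed counts, 119 against 12, scaled for depth, was 11.3, with an exact 95% interval of 6.25 to 22.6 for counting error only. Exons of another gene model on the same strand, *Gm20547*, cover 79.5% of the exon bases of *Cfb*, and *Gm20547* had 0 counts in all samples. Reads that fit both models cannot be assigned to either, so the level of *Cfb* is uncertain while the comparison between groups uses the same bases. *Cfp*, which encodes properdin, the stabilizer of that convertase, did not pass the test (log2 fold change 0.07, adjusted p = 0.846), and *Cfd*, for factor D, had at most 2 counts.

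*C1ra* and *C1s1* encode the paired proteases of the C1 complex and lie near each other on chromosome 6, at chr6:124512405-124523443 on the plus strand and chr6:124530345-124542359 on the minus strand. *C1ra* measured 52.4, 60.1, 63.5 and 65.8 CPM with IL-1β and 10.4, 9.82, 9.27 and 9.99 CPM with vehicle. The groups did not overlap, and IL-1β replicate 1 was the lowest of its group. *C1ra* rose 6.13-fold (log2 fold change 2.62, SE 0.0689, adjusted p = 1.22e-22). *C1s1* measured 15.9, 13.6, 14.7 and 14.5 CPM with IL-1β and 0.981, 1.27, 0.713 and 0.526 CPM with vehicle. Only vehicle replicate 2 exceeded 1 CPM in the vehicle group, and no vehicle sample came near the IL-1β samples. *C1s1* rose 16.2-fold (log2 fold change 4.02, SE 0.157, adjusted p = 1.39e-18), the 29th largest rise, beside place 69 for *C1ra*. Related genes could share reads with both. Of the 2932 windows of 50 bases in *C1ra* transcripts, 1408 also occur in *C1rb*, which had at most 2 counts in any sample, and 21.8% of such windows of *C1s1* occur in *C1s2*, with at most 1. An antisense gene model, *Gm16567*, overlaps 18.4% of the exon bases of *C1s1* and had 0 counts. Of the C1q chains that join these proteases in the C1 complex, *C1qb* had 0 counts in all samples, while *C1qa* had at most 3 and *C1qc* at most 2.

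*C4b* encodes C4, the substrate of C1s, and lies at chr17:34728380-34743882 on the minus strand. It measured 45.0, 46.7, 47.3 and 49.6 CPM with IL-1β and 44.7, 50.6, 48.7 and 51.5 CPM with vehicle. The groups overlapped. The log2 fold change was -0.05 (SE 0.0474, adjusted p = 0.466), with a 95% interval of -0.14 to 0.05. The exact permutation test over samples, two-sided, gave p = 0.4. Of the 50-base windows of *C4b*, 34.6% also occur in *C4a*, which had 6 to 14 counts with IL-1β and 7 to 12 with vehicle. *C2*, which encodes the other substrate of C1s, did not pass the test (log2 fold change -0.53, adjusted p = 0.195). Other gene models cover 46.9% of its exon bases, 42.8% on the same strand, so its counts may be partial.

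**Figure D2:**
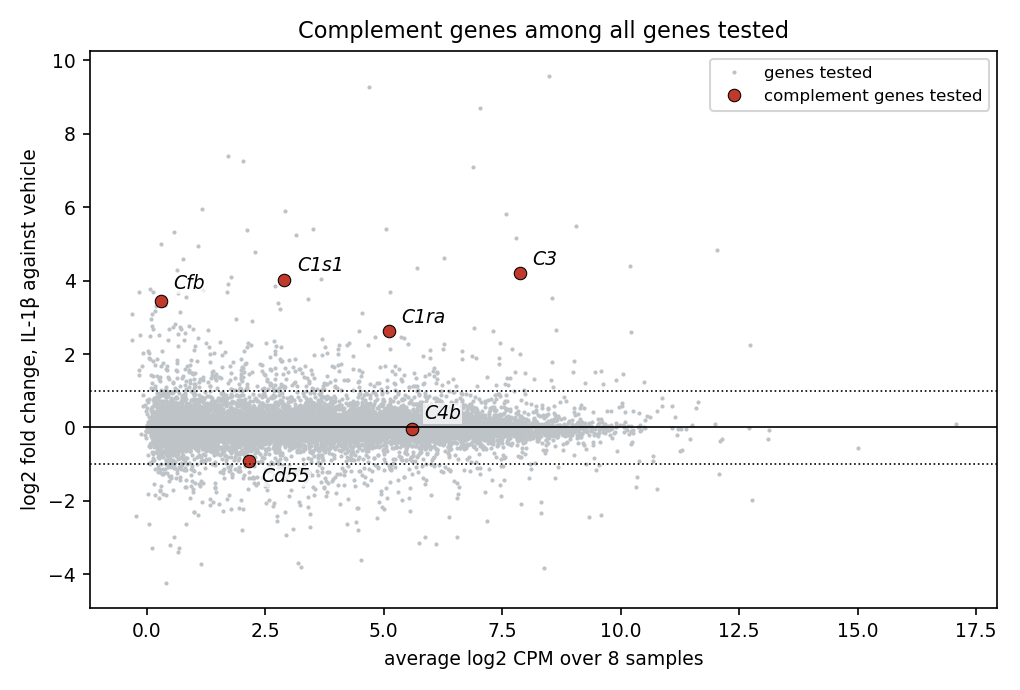
Log2 fold change, IL-1β against vehicle, against average log2 CPM over 8 samples for the 14404 genes tested (gray), with the 6 complement genes tested in red and dotted lines at a log2 fold change of 1 and -1. *C3*, *C1s1*, *Cfb* and *C1ra* lay above the upper line, *C4b* near 0 and *Cd55* just inside the lower line.

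The regulators did not move as a group. *Serping1* encodes C1 inhibitor, the serpin that inactivates C1r and C1s, and lies at chr2:84765387-84775444 on the minus strand. Its counts were 11, 24, 15 and 16 with IL-1β and 2, 5, 6 and 2 with vehicle. All IL-1β samples were above all vehicle samples in CPM, with IL-1β replicate 2 the highest at 1.73 CPM. It lay under the filter, and in the fit without that filter its log2 fold change was 2.28 (SE 0.403, adjusted p = 2.16e-07). In that fit 8.92% of 32379 genes were higher at an adjusted p under 0.05. The ratio of summed counts, 66 against 15, scaled for depth, was 5.03 (exact 95% interval 2.84 to 9.49).

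*Cd55* encodes the membrane protein that speeds the decay of C3 convertases, and lies at chr1:130439027-130462744 on the minus strand. It measured 2.79, 2.24, 3.74 and 2.77 CPM with IL-1β and 5.25, 4.97, 5.71 and 6.24 CPM with vehicle. The groups did not overlap, and IL-1β replicate 3 was the IL-1β sample nearest to the vehicle samples. *Cd55* fell by 0.92 on the log2 scale (SE 0.152, adjusted p = 1.39e-05), so that its vehicle level was 1.89 times its IL-1β level. This was the 381st largest fall and stayed under the fold of a DEG. Without IL-1β replicate 3 the log2 fold change was -1.09 and *Cd55* became a DEG. The related gene *Cd55b*, in which 384 of the 4801 windows of 50 bases of *Cd55* occur, had 0 counts in all samples.

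*Cd59a* encodes an inhibitor of the membrane attack complex and lies at chr2:104095801-104115354 on the plus strand. Its counts were 3, 9, 12 and 12 with IL-1β and 10, 17, 11 and 10 with vehicle. The groups overlapped in CPM. Without the filter the log2 fold change was -0.23 (SE 0.359, adjusted p = 0.739), with a 95% interval of -0.94 to 0.47. The related gene *Cd59b* had 3 to 7 counts with IL-1β and 1 to 10 with vehicle, and 3.87% of the 50-base windows of *Cd59a* occur in it.

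*C5ar1*, for the C5a receptor, lies at chr7:16246743-16259540 on the minus strand and was among the lowest of the 9 genes. Its counts were 3, 5, 16 and 6 with IL-1β and 2, 4, 3 and 4 with vehicle. IL-1β replicate 3 was the highest sample. The groups just failed to overlap, at 0.270 CPM for the lowest IL-1β sample and 0.263 CPM for the highest vehicle sample. Without the filter the log2 fold change was 1.34 (SE 0.516, adjusted p = 0.0535), and without IL-1β replicate 3 it was 0.78 (adjusted p = 0.538). Without IL-1β replicate 1 or replicate 2 it passed the test, with an adjusted p of 0.0252 and 0.0362, respectively. *C5ar2*, which encodes the second C5a receptor and was named after its values were seen, had 8, 11, 13 and 11 counts with IL-1β against 2, 2, 2 and 1. Its log2 fold change in the same fit was 2.71 (SE 0.538, adjusted p = 5.61e-06), and the ratio of summed counts was 7.02 (exact 95% interval 3.13 to 18.5). The gene for the ligand precursor C5, *Hc*, did not pass the test (log2 fold change 0.14, adjusted p = 0.713).

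The order of the genes by RPKM differed between the groups. With vehicle, *C4b* led at 8.58 ± 0.533 RPKM (SD, n = 4), followed by *C3* at 4.72, *C1ra* at 3.31 and *Cd55* at 1.14 RPKM. These 4 were each separate from the next in order, while the levels of *Cd59a*, *C1s1*, *Serping1*, *C5ar1* and *Cfb*, from 0.414 down to 0.0668 RPKM, overlapped their neighbors. With IL-1β, *C3* led at 87.4 RPKM, followed by *C1ra* at 20.3 ± 1.97, *C4b* at 8.28 ± 0.334 and *C1s1* at 4.68 ± 0.302 RPKM (SD, n = 4). These were again separate from the next in order. Below them *Cfb*, *Cd55*, *Serping1*, *Cd59a* and *C5ar1*, from 0.732 down to 0.195 RPKM, overlapped their neighbors. Being separate here refers to the spread between samples only. RPKM used the full listed length, including bases shared with related genes, where reads may not be assigned to either. Such sharing was unequal, at 1408 of 2932 windows of 50 bases in *C1ra*, 34.6% in *C4b* and 21.8% in *C1s1*. For *Cfb*, the overlapping gene model *Gm20547* covers 79.5% of the exon bases, so its RPKM, place and share may be too low. The effect of shared bases on the order, shares and ratios between genes was not tested.

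As a share of the summed RPKM of the 9 genes, *C3* made up 69.8 to 72.8% with IL-1β and 24.6 to 26.1% with vehicle. *C4b*, whose own level did not differ by the test, went from 44.2 to 46.5% with vehicle to 6.62 to 6.93% with IL-1β. The share of *Cd55* was 5.34 to 6.60% with vehicle and 0.376 to 0.615% with IL-1β. *C1ra* held 16.9 to 19.7% and 14.8 to 17.6%, and these ranges overlapped. The summed level itself was 17.8 to 19.5 RPKM with vehicle and 118.6 to 125.6 RPKM with IL-1β. Shares and sums made no allowance for windows shared with related genes or for the exon bases of *Cfb* shared with *Gm20547*.

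**Figure D3:**
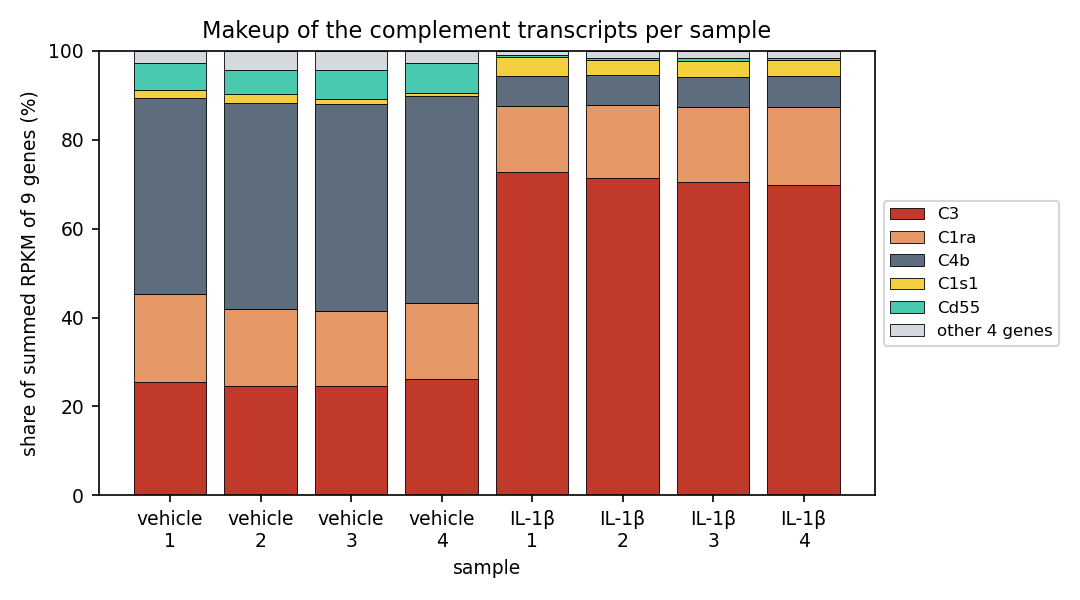
Share (%) of the summed RPKM of the 9 complement genes taken by each gene in each of the 8 samples, with *Cfb*, *Serping1*, *Cd59a* and *C5ar1* stacked as the other 4 genes. *C4b* took the largest share in the vehicle samples and *C3* in the IL-1β samples.

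Ratios within a sample compared genes of linked role. Of 5 ratios, none passed after Benjamini-Hochberg adjustment, and the smallest p that the exact permutation test allows with 4 against 4 samples is 0.0286. Only *C3* to *C4b* and *C1s1* to *C1ra* had that p, so their adjusted p could not be under 0.0714, however large the difference. Not passing therefore says nothing about its size. The *C3* to *C4b* ratio of RPKM was 10.6 with IL-1β and 0.550 with vehicle, a log2 difference of 4.26 with no overlap (exact permutation p = 0.0286, adjusted p = 0.0714). By listed length, *C1ra* was 12.5 times *C1s1* with vehicle and 4.33 times *C1s1* with IL-1β, without allowance for windows shared with related genes. The log2 ratio of *C1s1* to *C1ra* differed by 1.53, without overlap (exact permutation p = 0.0286, adjusted p = 0.0714). It differed by -0.15 when 1 RPKM, more than the 0.279 RPKM of *C1s1* with vehicle, was added to each level. The *Serping1* to *C1s1* ratio differed by -1.68 on the log2 scale, lower with IL-1β, with overlapping groups (exact permutation p = 0.0571, adjusted p = 0.0952). *Cfb* against *C3* and *Cd55* against *Cd59a* differed by -0.61 and -0.60 on the log2 scale, and both pairs of groups overlapped (exact permutation p = 0.314 and 0.257). With 1 RPKM added, the *Cfb* to *C3* difference was -3.26 and the *Serping1* to *C1s1* difference -1.70, each with the smallest exact permutation p, 0.0286. The mean levels of *Cfb* and *Serping1* were under that added value in both groups.

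**Figure D4:**
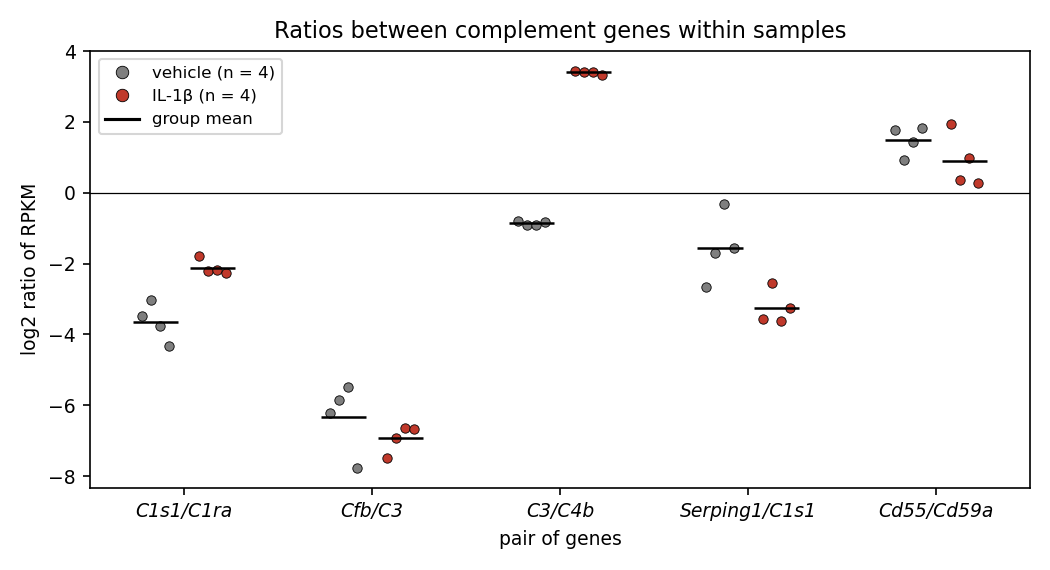
Log2 ratio of RPKM for 5 pairs of complement genes in each sample, in gray for vehicle and red for IL-1β (n = 4 each), with a line at each group mean. The groups were separate for *C1s1* to *C1ra* and *C3* to *C4b* and overlapped for the other 3 pairs.

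The rest of the pathway was read from a list of 55 complement genes that includes the 9 above. Of these, 13 passed the filter, 5 were higher at an adjusted p under 0.05, 1 was lower and 7 did not pass the test. Over all genes tested these shares were 20.4% higher and 19.8% lower. The 4 DEGs, all higher where the share over all genes was 2.86%, were all among the 9 genes. The median log2 fold change of the 13 was 0.07, beside 0.00 over all genes tested. Among the 19 genes of classical and lectin initiation, 5 passed the filter. *Colec12*, a membrane collectin, rose from 58.5 ± 2.12 to 80.6 ± 2.91 CPM (SD, n = 4), a log2 fold change of 0.46 (SE 0.0408, adjusted p = 1.75e-10). Among the 9 soluble regulators on the list, *Clu*, for clusterin, passed the filter but not the test (log2 fold change 0.06, adjusted p = 0.370). Among the 8 membrane regulators 3 were tested, and beside *Cd55* neither *Cr1l*, for the rodent regulator Crry, nor *Cd46* passed (log2 fold change 0.07 and 0.04, adjusted p = 0.130 and 0.883). *Cr1l* had 9.63 RPKM with IL-1β and 9.18 RPKM with vehicle, both above the level of *Cd55*. In the terminal pathway only *Hc* passed the filter, and *C6*, *C7*, *C8a* and *C9* had 0 counts in all samples, which allows up to 0.270 CPM. None of the 8 receptor genes passed the filter.

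**Figure D5:**
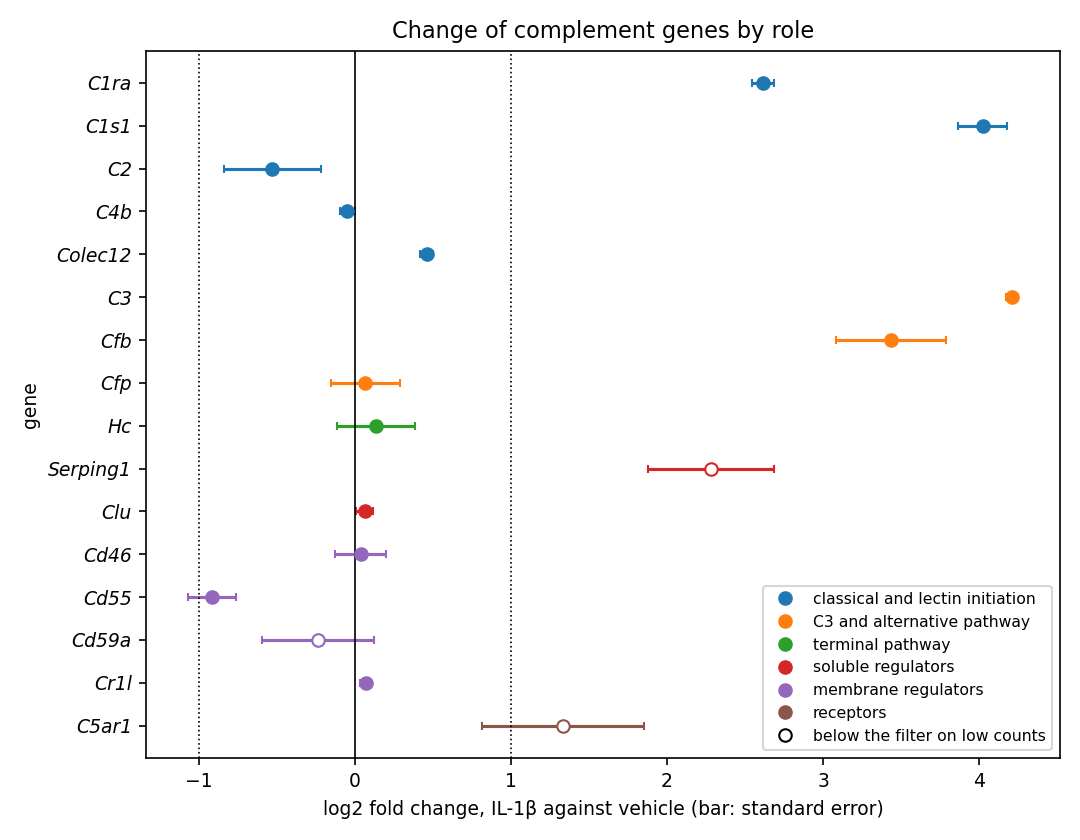
Log2 fold change, IL-1β against vehicle, with its standard error for the 13 complement genes tested and the 3 of the 9 genes under the filter (open symbols), colored by role, with dotted lines at 1 and -1. The 4 filled points above 1 are *C3*, *Cfb*, *C1ra* and *C1s1*, and *Cd55* is the filled point furthest below 0.

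The genes whose pattern over the 8 samples was most like that of a complement gene were found by the root-mean-square difference of centered log2 CPM. For *C3* these were *Chil1*, for a secreted chitinase-like protein, *Zc3h12a*, for a ribonuclease, and *Lbp*, for lipopolysaccharide-binding protein, with differences of 0.146, 0.167 and 0.212. For *Cfb* they were *Ch25h*, for cholesterol 25-hydroxylase, *Pim2* and *Col5a3*, with differences of 0.214, 0.338 and 0.338. For *Cd55* they were *Angpt4*, *Klk10* and *Egr2*, with differences of 0.112, 0.121 and 0.133. *Chil1* itself had a log2 fold change of 4.40 and *Lbp* one of 4.61, beside 4.21 for *C3*. *Klk10* had one of -0.95, beside -0.92 for *Cd55*. Such likeness in fold change follows from how these genes were chosen.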

How the data were processed

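RNA-Seq was measured in 4 IL-1β and 4 vehicle samples. The authors used cutadapt for trimming, STAR for alignment to mm10 and featureCounts for counting. The deposited values are whole-number counts per gene, not scaled to a common total, and stand beside a deposited column of gene length (bases). Whether these counts precede the RUVseq batch correction named in the methods is not given in the sources used here. Counting by strand is not given either.

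Samples were grouped by their labels. Counts were TMM-normalized and tested with edgeR 4.0.16 (limma 3.58.1, R 4.3.3) by its quasi-likelihood test, two-sided, with treatment as the only term, over genes exceeding 1 CPM in 4 or more samples. Genes under the filter were read from a separate fit of all genes with counts, which made its own estimate of spread. Its adjusted p-values are not on the scale of the main fit. *Cfb*, for example, had 2.98e-09 in the main fit and 8.13e-20 without the filter, both by edgeR's quasi-likelihood test. RPKM is TMM-scaled CPM per 1000 bases of listed length. Intervals of log2 fold changes came from the standard error of the fit. Intervals of count ratios and floors cover counting error only, because PCR copies were not marked by molecular identifiers. Python 3.11.15, scipy 1.17.1 and pandas 2.3.3 gave exact tests and ratios. Positions came from GENCODE vM21, with the same length as listed for 54 of 55 list genes, and promoters from RefSeq. The code was tested on simulated data.

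The members and lists were chosen with earlier results of these data known. The text names the 9 genes, list genes that were DEGs or had a mean of at least 1 RPKM in a group, related copies of the 9 genes, marker genes, and the 3 nearest patterns of *C3*, *Cfb* and *Cd55*. *C2*, *Hc*, *Cd46*, *Cfd*, the C1q genes, *C6*, *C7*, *C8a*, *C9*, *C3ar1*, *C5ar2* and *Cd93* fall outside this and were named after their values were seen. An item withheld from the list is not reported here. Alternatives were DESeq2 1.42.0, other size factors, other filters, glmTreat, a replicate block, 1 RPKM added, and each sample left out.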

Additional observations from a re-analysis of the deposited data

Results flagged for a closer look

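*C1s2*, a gene related to *C1s1*, was set apart in IL-1β replicate 1, at 0.0901 CPM against 0 in the other 3 samples of the group. The value rests on 1 read. It was the only 1 of 36 groups of 4 values in which the highest or lowest sample stood apart by Dixon's ratio, and chance gives about 1.8 such groups.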

How the results depend on the processing

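DEGs over all genes were 635 higher and 571 lower without a filter, 266 higher with a CPM above 1 in all 8 samples, and 262 and 175 by glmTreat, and 407 to 424 and 330 to 347 with 1 sample left out. Of the 9 genes, 2 were DEGs higher with a CPM above 1 in all samples, which removes *Cfb* and *C1s1*, 4 in each fit with 1 sample left out, and 5 without a filter, with *Serping1* added. DEGs lower were 0 to 1 among the 9 genes and among the 55 with 1 sample left out, the 1 being *Cd55* without IL-1β replicate 3. DEGs higher among the 55 were 7 without a filter and 2 with the strict one. The log2 fold changes of *C3*, *C4b*, *Cfb*, *C1ra*, *C1s1*, *Serping1* and *Cd59a* kept their direction and side of the threshold in every alternative that gave a value, with *C3* at 4.19 to 4.25 and *Cfb* at 3.18 to 3.65 with 1 sample left out. With 1 RPKM added, the *C1s1* to *C1ra* ratio turned to -0.15, the *Cfb* to *C3* ratio was -3.26 and the *Serping1* to *C1s1* ratio -1.70 (log2 differences), both then at exact permutation p = 0.0286. The 1 RPKM added exceeds the mean vehicle levels of *C1s1* (0.279 RPKM), *Serping1* (0.104 RPKM) and *Cfb* (0.0668 RPKM), and so outweighs them in these ratios. What else moved the ratios was not tested. Same-numbered samples, centered on their group mean, correlated at -0.07 to 0.03, and differently numbered ones at -0.07 to 0.08. These values show no pairing by number, but do not settle whether same-numbered samples shared a mouse or culture. With the replicate block, DEGs were 411 higher and 340 lower, and the log2 fold changes of *C3* and *Cd55* were 4.21 and -0.94, and no call among the 9 genes changed. By glmTreat against a log2 fold change of 1, *Cd55* did not pass (adjusted p = 1.0). By DESeq2 without the filter, the adjusted p was 0.000189 for *Serping1* and 0.257 for *C5ar1*. Depth limits *Serping1*, *Cd59a*, *C5ar1* and the vehicle level of *Cfb*.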

Other observations

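*Cd93*, a membrane receptor gene once linked to C1q and named after its values were seen, had 4, 10, 14 and 5 counts in the IL-1β samples and 4, 5, 4 and 1 in the vehicle samples. When low counts were kept, the log2 fold change of *Cd93* was 1.38 (SE 0.495, adjusted p = 0.0322, edgeR's quasi-likelihood test). *C3ar1*, for the C3a receptor, had 3, 4, 6 and 8 counts with IL-1β and 3, 5, 8 and 4 with vehicle, and the groups overlapped.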
